A study of Homo sapiens with 24 samples.

Results

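The comparison described here is the early transcriptional response of SK-MES1 cells to TGFβ1, 8 h after the ligand was added. SK-MES1 is an established human cell line from a squamous cell carcinoma of the lung (LUSC). The members were chosen by their labels alone and comprise 6 of the 24 RNA-seq libraries of the series, namely 3 of TGFβ-treated and 3 of untreated cells at 8 h. Before the start all cells, untreated ones included, were kept without serum for 3 h, after which 1 arm received TGFβ1 at 2 ng/ml and the other arm nothing. It is 1 cell line, to which no genetic change was made for these libraries. The study describes the samples of a group as biological replicates, and how far their cultures were kept apart is not given in the sources used here. The question was which genes and pathways had changed by 8 h, ahead of the 24 h and 48 h points of the same course. The 3 libraries of each arm taken at 0 h served to show how far the arms already differed before TGFβ1 could act. Changes within each arm from 0 h to 8 h were also tested against them.

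TGFβ1 is a secreted ligand that assembles a pair of type II and type I receptor kinases, which phosphorylate SMAD2 and SMAD3. These enter the nucleus with SMAD4 and act at regulatory DNA together with other factors such as AP-1, while further signals run through small GTPases, actin and MAP kinases. In epithelial cells the pathway is known for its growth arrest, for induction of its own inhibitors, for deposition of extracellular matrix and for epithelial-mesenchymal transition (EMT), in which cells loosen their junctions and become motile.

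The libraries of 8 h held 54019559 to 77964234 estimated counts each, and those of 0 h 49972158 to 57513828. Levels are given as TPM, an abundance per transcript length scaled to a fixed library total, summed over the transcripts of a gene and shown as mean ± SD of 3 libraries. Differences are TGFβ-treated minus untreated on the log2 scale with their standard error (SE). They come from the counts, so that a fold can depart from the ratio of TPM. A gene was called when its Benjamini-Hochberg adjusted p in limma voom was below 0.01. The deposited library names carry a code that was the same for 0 h and 8 h within an arm and different between the arms, so that arm and code cannot be told apart at 8 h, and the differences at 0 h are therefore given beside the results they touch. Within each group of 8 h the replicates differed from each other by more than counting noise, so that none was a library deposited again. In bulk libraries such as these, a change in the share of cells that express a gene cannot be told apart from a change in its mRNA per cell. A test by permutation of 3 against 3 libraries cannot give a two-sided p below 0.10, so that single genes were tested in the fit across all genes.

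The cell type of the line was checked against markers. Of 9 squamous and basal markers, TP63 (16.7 TPM in untreated cells) and PKP1 (32.7 TPM) were clearly expressed, whereas KRT5, KRT14 and DSG3 had means of at most 0.0583 TPM in either group and KRT6A was listed at 0 in all 6 libraries. The simple epithelial keratins KRT7, KRT8 and KRT18 had 370, 409 and 428 TPM in untreated cells, and NKX2-1, NAPSA, SFTPB, SFTPC and SCGB1A1, which mark glandular and alveolar lung cells, were below 0.3 TPM. Defining squamous keratins were thus near 0 in these libraries although the study describes the line as squamous. The summed TPM of the 9 squamous markers ran from 53.3 to 56.8 in untreated and from 93.9 to 96.1 in TGFβ-treated libraries. In treated cells PKP1 (57.3 TPM), TP63 (28.8 TPM) and KRT17 (7.58 TPM, beside 0.699 TPM in untreated cells) had higher means. SOX2 (4.04 TPM in untreated and 1.31 TPM in treated cells) and TRIM29 (0.352 and 0.186 TPM) had lower ones. Among 6 leukocyte markers CD3E was at 0 and PTPRC at 1.72 TPM, with CD68 at 24.3 TPM in untreated and 27 TPM in TGFβ-treated cells. Among 6 endothelial markers only PECAM1 reached 1 TPM, and their summed TPM was 1.33 to 1.82 in untreated and 1.09 to 1.58 in TGFβ-treated libraries. Of 8 fibroblast markers COL1A2 stood at 0.028 TPM and DCN at 0.758 TPM in untreated cells. PDGFRA, LUM, PDGFRB, THY1 and COL3A1 were expressed there at 6, 5.34, 4.88, 4.07 and 3.04 TPM. COL1A1 was the abundant one with 268 TPM in untreated and 812 TPM in TGFβ-treated cells. With it the summed TPM of the fibroblast markers ran from 289 to 295 and from 794 to 865, that of the leukocyte markers from 25.9 to 27.5 and from 28.6 to 29.8, and that of the simple and glandular epithelial markers from 1185 to 1220 and from 2012 to 2129. In treated cells KRT7 had 1146 TPM, whereas KRT8 and KRT18 had 456 and 465 TPM. The part of these shifts in the results was not tested.

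At 8 h, expression of 2859 of 17453 tested genes (16.4%) differed between TGFβ-treated and untreated cells. Of these, 1592 (9.12% of the tested genes) were higher and 1267 (7.26%) lower after TGFβ1. Most differences were small: 935 of the higher and 853 of the lower genes stayed under 1.5-fold. At least 2-fold differences were found for 428 genes (2.45%), of which 316 (1.81%) were higher and 112 (0.642%) lower, and at least 4-fold differences for 88 higher and 15 lower genes. Genes with larger differences were thus more often higher than lower. The TPM values of the 3 treated and 3 untreated libraries did not overlap for 1511 of the 1592 higher and 1217 of the 1267 lower genes, beside 8280 (47.4%) of all tested genes.

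The split between higher and lower among all called genes depended on the scaling of the libraries. It was 55.7% higher with TMM factors, 33.9% when only the library totals were used, 44.7% with upper-quartile factors, 73.8% when 4 reference genes set the scale and 47.2% on log2(TPM + 1). With library totals the median difference of all genes was -0.10, beside -0.02 with TMM factors. Among genes with at least 2-fold differences the higher genes kept the majority, with 73.8% in the fit used here and 64.5% to 79.7% under those scalings of the counts. The weight of the small differences to either side was therefore not settled by these data, whereas the preponderance of induction among large differences was seen under each of these scalings.

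**Figure D1:**
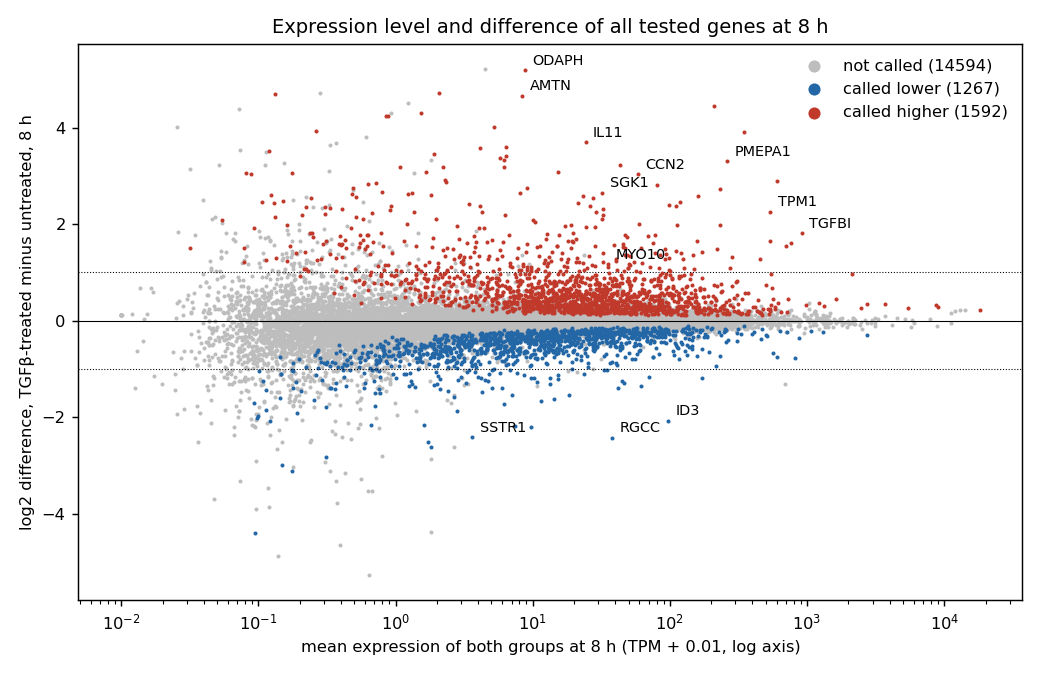
Each point is 1 of the 17453 tested genes, with the mean TPM of the 6 libraries of 8 h on a log axis and the log2 difference between TGFβ-treated and untreated cells on the other axis. Red points were called higher (1592), blue points lower (1267), and dotted lines mark 2-fold differences; the points beyond 2-fold lie mostly on the upper side.

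Before treatment the arms were close to each other. At 0 h no gene was called by limma voom, and 800 genes (4.58%) had an unadjusted p below 0.05. This fit took no account of the replicate number, and the 0 h contrast was not run with a replicate block. When the difference at 0 h was subtracted, 1376 genes (7.88%) were called on the change from 0 h, 881 (5.05%) higher and 495 (2.84%) lower, which is 64.0% higher. This contrast uses 12 libraries and has a larger error. With a replicate block in the fit 1598 genes were called on it. The sign of the change was that of the difference at 8 h for 1591 of the 1592 higher and 1264 of the 1267 lower genes, and of the genes with at least 2-fold differences 249 of 316 and 70 of 112 were also called on the change. The TGFβ arm itself lay at least 2-fold from its own 0 h level, on the side of the difference, for 236 of the 316 higher genes but for 46 of the 112 lower genes. Conversely, the untreated arm lay at least 2-fold from its 0 h level on the opposite side for 31 of the 316 and 22 of the 112. In a test of the TGFβ arm against its own 0 h libraries (limma voom, adjusted over all genes), 1145 of the 1592 higher genes were higher at 8 h than at 0 h, 74 were lower and 373 were not called. Of the 1267 lower genes 647 were lower than at 0 h, 135 were higher and 485 were not called. In what follows higher and lower compare TGFβ-treated with untreated cells at 8 h, values in brackets are those of untreated and then of treated cells, and a change against 0 h is named as such.

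**Figure D2:**
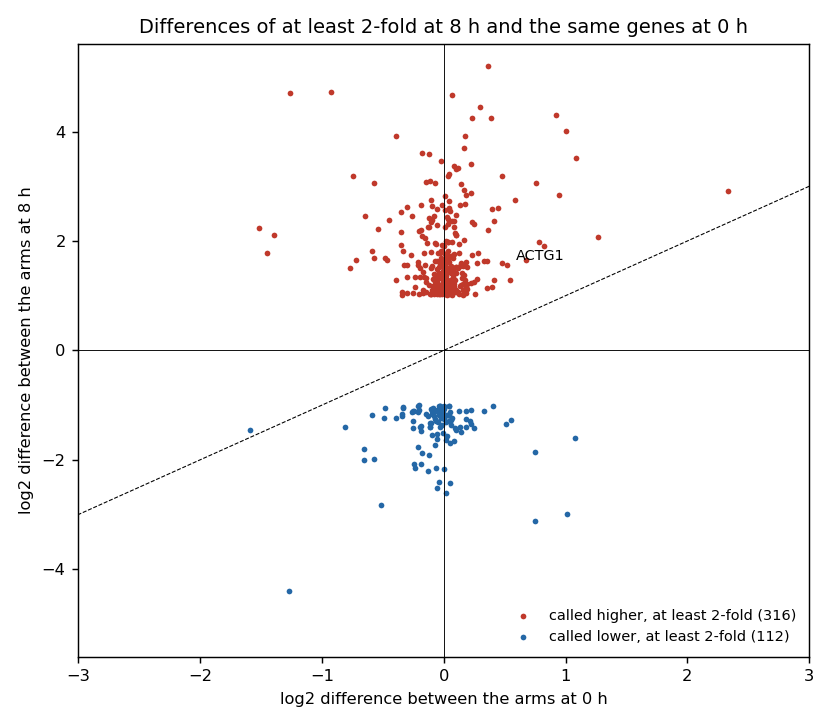
Each point is 1 of the 428 genes called with at least 2-fold differences at 8 h, with the log2 difference between the arms at 0 h on the horizontal and at 8 h on the vertical axis. Points on the dashed line would have had the same difference at both times. Red (316) and blue (112) points scatter around 0 on the horizontal axis, and ACTG1 is marked as a gene with an offset at 0 h.

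Leading genes had the lowest p among those with at least 2-fold differences, 5 TPM and no overlap of TPM between the groups at 8 h. That the groups lie apart in these genes is thus part of the rule. The leading induced genes included PMEPA1, CCN2, TGFBI, SGK1, F2R, TPM1, DCBLD1, ADAM19 and DACT1. PMEPA1, a membrane protein that binds SMAD2 and SMAD3 and dampens the TGFβ signal, read 49.5, 47.2 and 44.4 TPM in the 3 untreated and 486, 485 and 456 TPM in the 3 TGFβ-treated libraries. Its difference was 3.31 ± 0.04 (SE), or 9.9-fold, with an adjusted p of 8.7e-23. Every treated library lay several-fold above every untreated one, and at 0 h the arms differed by 0.10 on the log2 scale.

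TGFBI encodes a secreted matrix protein that binds integrins and was the most abundant of these. Its levels were 407, 424 and 410 TPM in untreated and 1418, 1421 and 1415 TPM in TGFβ-treated libraries, a difference of 3.52-fold (log2 1.82 ± 0.03 SE). CCN2, formerly CTGF, a matricellular growth factor and a textbook target of both SMAD3 and YAP with TEAD factors, read 12.7, 13.2 and 13.4 TPM and 104, 104 and 103 TPM, or 8.22-fold. The range of CCN2 within each group was far narrower than the distance between the groups. SGK1, a kinase of the AGC family related to AKT, was higher (9.26 ± 0.948 and 55.2 ± 3.33 TPM, 6.29-fold). Its levels were 10.3, 8.94 and 8.51 TPM in untreated and 57.5, 51.4 and 56.8 TPM in treated libraries. F2R, the thrombin receptor PAR1, read 15, 15 and 14.7 TPM and 41.7, 41.9 and 41.8 TPM (2.92-fold). At 0 h F2R stood at 24.8 ± 0.308 TPM in the untreated and 22.7 ± 1.43 TPM in the TGFβ arm, so that its level fell in untreated cells (log2 -0.78 from 0 h to 8 h, adjusted p = 4.8e-13) while it rose in treated cells (0.87, adjusted p = 9.6e-15). Such changes within an arm were tested as contrasts of the same limma voom fit.

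TPM1, the actin-binding tropomyosin that stabilises stress fibres, read 194, 196 and 194 TPM in untreated and 884, 867 and 900 TPM in TGFβ-treated libraries (4.8-fold, log2 2.26 ± 0.05 SE). The share of TPM1 that came from its leading transcript went from 54.4% in untreated to 69.9% in treated cells, so that the gene's transcripts did not rise evenly. ADAM19, a membrane-bound metalloproteinase and sheddase, read 7.32, 7.02 and 6.38 TPM and 36.6, 35.3 and 36 TPM (5.42-fold). DACT1, a scaffold of the Wnt pathway that binds Dishevelled, went from 2.48, 2.25 and 2.16 TPM to 14.1, 13.8 and 13.8 TPM (6.3-fold), and DCBLD1, a transmembrane protein, from 32.4, 33.8 and 35.4 TPM to 102, 103 and 107 TPM (3.38-fold). All of these genes were also called on the change from 0 h.

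The 10 leading lower genes were RGCC, IL6R, SSTR1, TIMP3, INKA2, TNFRSF11B, HS3ST1, ID2, PPL and ID3. RGCC, a regulator of the cell cycle, had the largest difference between the groups of the 10. It read 65, 65 and 64.3 TPM in untreated and 11.5, 10.4 and 12.2 TPM in TGFβ-treated libraries (5.38-fold lower, log2 -2.43 ± 0.08 SE, adjusted p = 2.9e-15). Its level at 0 h was 71.9 ± 2.27 TPM in the untreated and 72.4 ± 2.83 TPM in the TGFβ arm. Its change over 8 h was -2.67 in treated cells (adjusted p = 4.6e-16) and -0.20 in untreated cells, which was not called (adjusted p = 0.022). SSTR1, a somatostatin receptor, read 5.99, 6.33 and 6.04 TPM against 1.11, 1.27 and 0.99 TPM (5.32-fold lower). IL6R, the receptor chain for interleukin 6, read 10.3, 9.5 and 10.2 TPM against 4.6, 4.1 and 3.66 TPM (2.92-fold lower). For both receptors the untreated arm also fell from its 0 h level, which had been 11.4 ± 0.177 TPM for SSTR1 and 19 ± 1.37 TPM for IL6R (log2 changes of -0.94 and -0.98, adjusted p = 1.8e-10 and 1.5e-12). TGFβ-treated cells fell by 3.31 and 2.43.

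ID2 and ID3 encode inhibitors of basic helix-loop-helix factors. ID3 read 167, 161 and 150 TPM in untreated and 34.7, 34.7 and 39 TPM in treated libraries (4.19-fold lower, log2 -2.07 ± 0.12 SE), and ID2 22.1, 21.9 and 21.4 TPM and 7.83, 6.85 and 6 TPM (3.08-fold lower). From 0 h to 8 h ID3 went from 63 ± 2.97 to 159 ± 8.43 TPM in untreated cells and from 57.4 ± 6.71 to 36.1 ± 2.49 TPM in TGFβ-treated cells, so that both arms moved, in opposite directions (1.29, adjusted p = 1.8e-08, and -0.59, adjusted p = 0.00065). ID2 fell in both arms, from 30.5 ± 4.2 to 21.8 ± 0.341 TPM without and from 27.2 ± 1.5 to 6.9 ± 0.916 TPM with TGFβ1.

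PPL encodes periplakin, a linker of desmosomes and the cornified envelope, and differed mainly through the untreated arm. That arm rose by 1.46 on the log2 scale from 0 h to 8 h (adjusted p = 1e-11), whereas the change in the TGFβ arm was 0.09 and not called (adjusted p = 0.4). Its levels were 62.6, 59.3 and 60.3 TPM in untreated and 22.2, 22.3 and 22.7 TPM in treated libraries (2.64-fold lower), while at 0 h they were 22 ± 1.12 and 21.1 ± 2.56 TPM. TIMP3, a matrix-bound inhibitor of metalloproteinases, read 66.6, 66.1 and 65.6 TPM and 27, 24.8 and 26 TPM (2.46-fold lower), with 39 ± 1.49 and 39.5 ± 1.75 TPM at 0 h. Untreated cells thus gained TIMP3 over 8 h (0.72, adjusted p = 1e-08) and TGFβ-treated cells lost it (-0.62, adjusted p = 6.6e-08). TNFRSF11B, the decoy receptor osteoprotegerin, followed the same course with 16, 17.4 and 19 TPM and 4.62, 5.8 and 5.97 TPM at 8 h (3.14-fold lower) and 10.9 ± 0.584 and 11.3 ± 2.01 TPM at 0 h. Its changes within the arms were 0.67 and -1.07 (adjusted p = 8e-07 and 3.6e-09). INKA2, an inhibitor of the kinase PAK4, read 19.7, 21 and 21.2 TPM and 10.1, 9.26 and 10.1 TPM (2.31-fold lower). HS3ST1, a sulfotransferase of heparan sulfate, read 6.03, 6.1 and 5.2 TPM and 3, 2.91 and 2.15 TPM (2.79-fold lower on counts). Its transcript ENST00000510712 carried 18.4% of the TPM in untreated and 43.7% in treated cells, and ENST00000002596 58% and 42.7%. The share of ENST00000510712 was 0%, 19.1% and 36.2% in the untreated and 35.1%, 59.1% and 36.8% in the treated libraries.

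**Figure D3:**
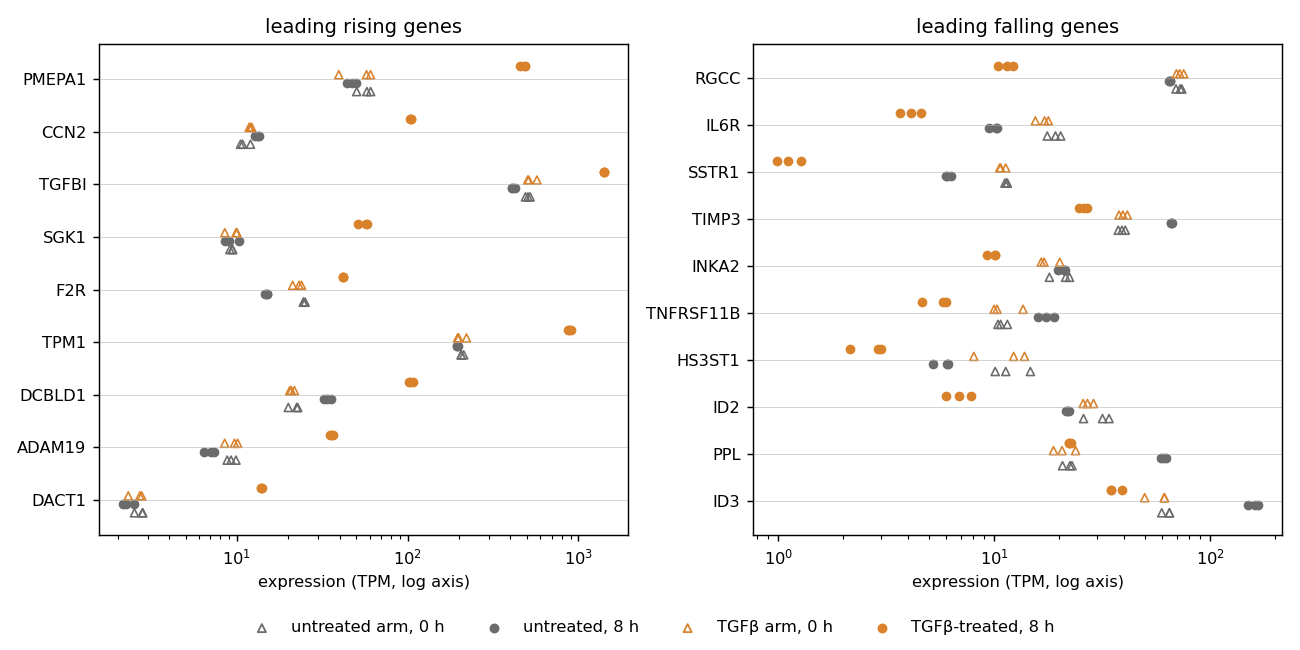
TPM on a log axis of leading induced (left) and the 10 leading lower genes (right), with 1 point per library: grey for the untreated and orange for the TGFβ arm, triangles for 0 h and filled circles for 8 h. The rule for leading genes required that the grey and orange circles do not overlap. For PPL, TIMP3, TNFRSF11B and ID3 the grey circles stand to the right of the triangles of 0 h.

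Among genes that reached 5 TPM in either group, the 5 with the largest differences upward were ODAPH, AMTN, CGB5, FOXS1 and CGB8. ODAPH, AMTN and FOXS1 were under 1 TPM without TGFβ1, so that they reached 5 TPM through the treated group alone. ODAPH, a protein of enamel formation, read 0.552, 0.661 and 0.714 TPM in untreated and 16.6, 17.4 and 17.1 TPM in TGFβ-treated libraries (36.7-fold), and AMTN, which encodes the enamel and junctional epithelium protein amelotin, 0.586, 0.634 and 0.581 TPM and 14.6, 16.8 and 17.1 TPM (25.4-fold). FOXS1, a forkhead transcription factor, read 0.69, 0.629 and 0.555 TPM and 10.4, 10.2 and 9.01 TPM (16.2-fold), with a difference of 1.01 between the arms at 0 h that was not called (adjusted p = 1). The rule took the largest differences, so that the distance between treated and untreated libraries of these genes is no further support. CGB5 and CGB8 encode the β subunit of chorionic gonadotropin and reached a high level, CGB5 with 22.5, 18 and 17.7 TPM in untreated and 408, 427 and 374 TPM in treated libraries and CGB8 with 47.3, 49.2 and 39.7 and 680, 695 and 587 TPM. At 0 h CGB5 stood at 55.2 ± 9.78 TPM in the untreated and 68.7 ± 24.6 TPM in the TGFβ arm and CGB8 at 123 ± 6.03 and 136 ± 19 TPM. Over 8 h both fell in untreated cells (log2 -1.54 and -1.48, adjusted p = 0.00018 and 3.3e-09) and rose in treated cells (2.61 and 2.26, adjusted p = 4.7e-09 and 1.9e-13). The CGB genes are nearly identical copies among which reads are split by estimation, so that the division between CGB5 and CGB8 is uncertain. At the lower end of this rule, ATOH8, a helix-loop-helix factor known as a BMP target, read 15.9, 16.6 and 15.9 TPM and 2.78, 3.48 and 3.22 TPM (4.63-fold lower), and RASL11A, a small GTPase, 11.9, 11.8 and 13.2 TPM and 2.18, 2.7 and 3 TPM (4.52-fold lower).

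The promoters of leading induced genes were read for fixed motifs, because SMAD3 and SMAD4, AP-1, TEAD and SRF are the factors known downstream of TGFβ and actin signals. RefSeq windows of GRCh38.p14 from 250 bases before to 50 after a start were searched on both strands for CAGACA, which holds the SMAD core, for GTCT directly followed by AGAC, for the AP-1 motif TGANTCA, for the TEAD motif GGAATG and for the CArG box of SRF. Windows were found for 16 of the 20 leading genes, 8 of them induced, and for 12464 of the 17453 tested genes. The 4 stretches shown are from the induced leading genes in which CAGACA or GGAATG was found, each as the 200 bases before a start, namely CCN2 at chr6:131951373-131951572 on the minus strand, TPM1 at chr15:63048289-63048488 on the plus strand, DACT1, at 1 of its 3 starts, at chr14:58633861-58634060 on the plus strand and PMEPA1, at 1 of its 4 starts, at chr20:57710578-57710777 on the minus strand. They are written 5′ to 3′ along the gene, with the base before the start last, and capitals mark the motif matches:
CCN2: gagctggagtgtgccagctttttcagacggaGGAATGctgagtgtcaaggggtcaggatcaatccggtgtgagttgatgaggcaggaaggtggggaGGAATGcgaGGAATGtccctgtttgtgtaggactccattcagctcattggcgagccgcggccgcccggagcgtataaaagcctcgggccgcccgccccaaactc
TPM1: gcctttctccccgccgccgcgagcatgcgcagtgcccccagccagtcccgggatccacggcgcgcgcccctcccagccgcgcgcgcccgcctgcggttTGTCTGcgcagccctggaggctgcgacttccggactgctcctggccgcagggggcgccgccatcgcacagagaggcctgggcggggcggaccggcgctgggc
DACT1: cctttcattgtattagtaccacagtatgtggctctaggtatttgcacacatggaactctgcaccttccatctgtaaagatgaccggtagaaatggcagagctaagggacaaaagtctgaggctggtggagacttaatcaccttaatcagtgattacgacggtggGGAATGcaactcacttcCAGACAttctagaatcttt
PMEPA1: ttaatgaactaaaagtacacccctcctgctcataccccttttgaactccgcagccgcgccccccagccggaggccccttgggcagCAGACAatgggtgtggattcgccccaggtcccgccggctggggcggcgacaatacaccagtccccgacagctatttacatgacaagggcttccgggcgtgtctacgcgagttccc
CCN2 holds GGAATG at 3 places, beginning 169, 104 and 95 bases before the start, TPM1 holds CAGACA on the other strand at 102 to 97 bases before it, and DACT1 holds GGAATG at 36 and CAGACA at 19 bases before it. PMEPA1 holds CAGACA at 115 to 110 bases before the start, whereas TGFBI, SGK1, DCBLD1 and ADAM19 held none of the searched motifs in their windows.

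Across the windows of genes called higher with at least 2-fold differences, 22.6% of 332 held CAGACA, beside 18.7% of 123 windows of genes called lower with at least 2-fold differences, 14.3% of the windows of all tested genes and 16.9% of all 35097 windows. GGAATG was held by 13.3%, 13%, 11.7% and 14% of these windows, TGANTCA by 7.23%, 5.69%, 5.72% and 7.71%, and the CArG box by 2.41%, 1.63%, 1.16% and 1.29%. GTCT followed by AGAC was present in 0 of the 332 and in 0.202% of all windows. These shares are descriptions without a test, and a match of 6 letters is neither a bound site nor a cause of the change.

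Among SMADs and feedback inhibitors, 8 of 18 tested members were higher and 1 lower, with a median log2 difference of 0.17 beside -0.02 over all tested genes, and 6 and 0 were called on the change from 0 h. Of all tested genes 16.4% were called, 9.12% higher and 7.26% lower, and the shares called in a list are read against these. The inhibitors of the pathway moved most. Besides PMEPA1, expression of SKIL, a co-repressor of SMAD complexes, read 11, 10.4 and 11.3 TPM in untreated and 46.5, 46.4 and 47.5 TPM in TGFβ-treated libraries (4.8-fold). SMAD7, the inhibitory SMAD that blocks the type I receptor, read 7.1, 7.68 and 7.33 TPM and 31.9, 31.3 and 28.5 TPM (3.93-fold, log2 1.98 ± 0.05 SE). LDLRAD4, a relative of PMEPA1, was higher (0.765 ± 0.146 and 2.05 ± 0.333 TPM). NEDD4L, a ubiquitin ligase, was slightly lower with 32.9 ± 0.628 and 30.7 ± 0.741 TPM, a call that was lost without untreated replicate 1 or 3 or treated replicate 2 or 3 (adjusted p 0.016 to 0.022). Of 9 receptors (22.2% called), TGFBR1 was higher by 0.46 on the log2 scale and TGFBR3, the co-receptor betaglycan, was lower (4.28 ± 0.708 and 2.01 ± 0.22 TPM), and the other 7 were not called. Of the 2 called receptors TGFBR3 was also called on the change from 0 h.

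Of 16 ligands and latency proteins 6 were higher and 3 lower, 5 and 3 on the change from 0 h. TGFB1, the ligand itself, read 67.5, 72.7 and 72.4 TPM in untreated and 132, 130 and 123 TPM in treated libraries (1.93-fold). FSTL3, a secreted antagonist of activins, was higher (21.5 ± 0.263 and 140 ± 4.22 TPM, 7.05-fold), as were LTBP2, of the latent TGFβ binding protein family (11.9 ± 0.723 and 45.1 ± 1.3 TPM, 3.83-fold), and THBS1, an activator of latent TGFβ (382 ± 15.1 and 706 ± 6.04 TPM). GDF15 was lower (89.7 ± 3.12 and 33.8 ± 2.44 TPM), as were INHBA, which encodes the activin A subunit (2.16 ± 0.333 and 1.32 ± 0.224 TPM), and TGFB3 (7.43 ± 0.438 and 4.97 ± 0.785 TPM).

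In the BMP branch more members were lower than higher. Of BMP pathway and ID genes 3 of 21 tested members were higher and 6 lower, 3 and 4 on the change from 0 h. Besides ID2, ID3 and ATOH8, BMP4 was lower (49 ± 2.05 and 26.1 ± 0.681 TPM). ID1 read 136, 142 and 128 TPM in untreated and 89.2, 88.4 and 90.5 TPM in treated libraries (-0.54 ± 0.10 SE on the log2 scale), and its change from 0 h was not called (adjusted p = 0.0568). ID1 increased from 0 h in both arms, from 39.4 ± 0.828 TPM in the untreated and 37.6 ± 8.42 TPM in the TGFβ arm. The higher members were NOG, which encodes the BMP antagonist noggin (1.75 ± 0.0985 and 6.38 ± 0.53 TPM), and the receptors BMPR2 (10.9 ± 0.358 and 18.2 ± 0.721 TPM) and ACVR1 (17 ± 1.12 and 22.5 ± 1.03 TPM).

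Of 18 AP-1 and early growth response factors 8 were higher and 2 lower (6 and 1 on the change from 0 h), with a median log2 difference of 0.35. JUNB read 23.2, 23.9 and 24.6 TPM in untreated and 64.3, 68 and 67.5 TPM in treated libraries (2.9-fold), JUN was higher (38.1 ± 0.526 and 75.4 ± 3.86 TPM), as was EGR2 (0.554 ± 0.116 and 4.02 ± 0.235 TPM), while EGR1 (6.55 ± 0.313 and 4.83 ± 0.643 TPM) and BATF3 (6.49 ± 1.03 and 4.72 ± 0.735 TPM) were lower. The call was lost for EGR1 without untreated replicate 2 or treated replicate 1 (adjusted p 0.014 to 0.019) and for BATF3 without untreated replicate 3 or treated replicate 2 or 3 (adjusted p 0.016 to 0.023). Of 28 other factors 15 were higher and 4 lower, 15 and 2 on the change from 0 h. The circadian repressor BHLHE40 was higher (47.8 ± 2.15 and 179 ± 0.229 TPM, 3.96-fold), as were RUNX1 (19 ± 0.316 and 37.5 ± 0.907 TPM), NFATC2 (0.551 ± 0.0458 and 3.37 ± 0.293 TPM) and HIC1 (0.433 ± 0.051 and 1.95 ± 0.0748 TPM). CITED2, a co-regulator that binds CBP and p300, was lower (63.4 ± 1.51 and 25.9 ± 0.785 TPM), and RUNX2 was lower (22 ± 0.765 and 16.3 ± 0.35 TPM).

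Of 20 EMT transcription factors and mesenchymal genes 5 were higher and 2 lower, and the 5 but none of the 2 were called on the change from 0 h. SNAI1, a repressor of E-cadherin, read 2.18, 2.02 and 2.02 TPM in untreated and 5.47, 5.26 and 5.42 TPM in treated libraries (2.7-fold), and its relative SNAI2 22.4, 23.2 and 23.7 TPM and 47.4, 48.4 and 48.3 TPM (2.16-fold). VIM, which encodes vimentin, was already among the abundant mRNAs in untreated cells and read 1443, 1481 and 1467 TPM and 2819, 2803 and 2652 TPM (1.96-fold). CDH6 was higher (1.97 ± 0.149 and 3.99 ± 0.142 TPM). TWIST1 was lower with 6.58, 4.94 and 6.63 TPM in untreated and 4.73, 4.16 and 4.38 TPM in treated libraries (-0.47 ± 0.10 SE), and the change from 0 h was not called (adjusted p = 0.246). ZEB1 read 16.1 ± 0.603 and 16 ± 1.12 TPM and was not called (log2 0.12 ± 0.09 SE, adjusted p = 0.389). In a fit of the 6 libraries of 8 h with a replicate block ZEB1 was called higher by 0.12 (adjusted p = 0.0048). S100A4 was lower (564 ± 20.9 and 437 ± 9.58 TPM), a call that was lost without untreated replicate 3 (adjusted p 0.011), and the TGFβ arm was not called against its own 0 h (adjusted p = 0.81).

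Of 33 tested epithelial junction genes 4 were higher and 7 lower (1 and 2 on the change from 0 h), with a median log2 difference of -0.08. With the scale set by 4 reference genes the counts turned to 7 higher and 4 lower. They were 3 and 3 without treated replicate 1. CDH1, which encodes E-cadherin, read 1.53, 1.57 and 1.43 TPM in untreated and 2.29, 1.75 and 1.89 TPM in treated libraries, and its difference of 0.32 ± 0.10 SE was not called (adjusted p = 0.0164), though it was called higher without treated replicate 2 (adjusted p 0.0084), in DESeq2 (adjusted p = 0.0077) and in the 6 libraries of 8 h with a replicate block (adjusted p = 0.0083). Besides PPL, the tight junction genes TJP3 (1.57 ± 0.255 and 0.993 ± 0.323 TPM), CGN, which encodes cingulin (1.38 ± 0.448 and 0.725 ± 0.0654 TPM), and OCLN, which encodes occludin (2.58 ± 0.297 and 1.79 ± 0.343 TPM), were lower, at low levels in both groups. The call of OCLN was lost without untreated replicate 1 or treated replicate 1 or 3 (adjusted p 0.011 to 0.018). On log2(TPM + 1) the calls of TJP3, CGN and OCLN were lost (adjusted p 0.037 to 0.2). TJP3 was not called on the change from 0 h (adjusted p = 0.077). It rose by 1.33 in untreated cells, while its change of 0.15 in treated cells was not called (adjusted p = 0.73). The tight junction gene TJP1 was called higher (log2 0.42), but not on the change from 0 h (adjusted p = 0.015). PKP1, a desmosomal plaque protein, was higher (32.7 ± 0.839 and 57.3 ± 1.7 TPM), as was DSP, which encodes desmoplakin (5.76 ± 0.0839 and 6.89 ± 0.209 TPM). DSP was not called on the change from 0 h (adjusted p = 0.076). Its call at 8 h was lost with library totals (adjusted p = 0.015) and with 4 reference genes (adjusted p = 0.03).

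Of 29 squamous lineage and cornification genes 14 passed the filter on low counts, 3 were higher and 1 lower, 2 and 1 on the change from 0 h. KRT17, a keratin of basal and wounded epithelium, was higher (0.699 ± 0.0444 and 7.58 ± 0.7 TPM), as was KRT16 (0.228 ± 0.102 and 1.18 ± 0.0594 TPM), closely related genes for which the split of reads is uncertain. For KRT16 the arms already differed by 0.95 on the log2 scale at 0 h, and the change from 0 h was not called (adjusted p = 0.0592). TP63, the master regulator of the squamous lineage, read 18.2, 15.8 and 16.1 TPM in untreated and 27.4, 28.7 and 30.3 TPM in treated libraries (1.75-fold). SOX2, a lineage factor amplified in many LUSC tumours, read 3.97, 3.81 and 4.33 TPM and 1.41, 1.24 and 1.27 TPM (2.97-fold lower). The 2 lineage factors thus differed in opposite directions. Both were called on the change from 0 h. KRT5 could not be tested, since its mean estimated count was 0.333 in untreated and 1 in treated libraries.

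Of 21 integrin genes 57.1% were called, beside 16.4% of all tested genes. Of these integrins 8 were higher and 4 lower, and 7 and 1 were called on the change from 0 h. ITGB3, the β3 chain of the vitronectin receptor, read 11.4, 11.8 and 11.1 TPM in untreated and 52.2, 52 and 55.3 TPM in treated libraries (4.97-fold), and ITGB6, whose αvβ6 dimer activates latent TGFβ, was higher (1.21 ± 0.251 and 4.41 ± 0.106 TPM, 3.92-fold). ITGA5, the fibronectin receptor chain, read 67.1, 68.8 and 68.4 TPM and 179, 172 and 164 TPM (2.65-fold), and the collagen receptor chain ITGA11 was higher (35.8 ± 1.99 and 62.8 ± 4.19 TPM). ITGB8 was lower (13.3 ± 0.198 and 8.5 ± 0.677 TPM), as was ITGA10 (8.46 ± 0.475 and 4.91 ± 0.307 TPM).

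Of 32 focal adhesion plaque genes 20 were higher and 2 lower (13 and 2 on the change from 0 h), with a median log2 difference of 0.39 and 4 members at 2-fold or more. NEDD9, a scaffold of the CAS family, was higher (1.46 ± 0.119 and 10.9 ± 0.104 TPM, 9.12-fold), as were LIMS1, also called PINCH (33.1 ± 1.05 and 91 ± 3.48 TPM), PDLIM7 (120 ± 6 and 324 ± 14.7 TPM) and FHL3 (39.4 ± 0.599 and 86.1 ± 3.91 TPM), while TNS3, which encodes tensin 3, was lower (106 ± 1.4 and 74.8 ± 1.59 TPM). From 0 h TNS3 increased in both arms, by 0.61 in untreated and 0.26 in treated cells on the log2 scale. Of 53 actin cytoskeleton and SRF target genes 30 were higher and 4 lower. On the change from 0 h 16 and 1 were called, while the median difference between the arms at 0 h over the list was 0.02.

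MARCKS, a membrane-bound substrate of protein kinase C that cross-links actin, read 52.8, 53.7 and 52.9 TPM in untreated and 129, 132 and 140 TPM in treated libraries (2.61-fold). ACTG1, cytoplasmic γ-actin, read 412, 391 and 318 TPM and 1217, 1092 and 765 TPM, yet the arms already differed by 0.52 on the log2 scale at 0 h, and the change from 0 h was not called (adjusted p = 0.036). ACTG1 also has many processed pseudogenes that share its reads. CNN1, the smooth muscle calponin, was called at a low level (0.556 ± 0.144 and 1.05 ± 0.371 TPM) and not on the change from 0 h (adjusted p = 0.0128). MYLK, which encodes myosin light chain kinase, was lower (20.6 ± 1.6 and 9.97 ± 1.73 TPM) with a change from 0 h that was not called (adjusted p = 0.022), and SYNPO2, which encodes synaptopodin 2, was lower (1.82 ± 0.266 and 1.02 ± 0.126 TPM).

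Of 25 tested myosin genes (28% called) 4 were higher and 3 lower, 4 and 1 on the change from 0 h. MYO10, the motor that carries cargo to the tips of filopodia, read 22.3, 22.9 and 21.7 TPM in untreated and 48.1, 48.9 and 50 TPM in TGFβ-treated libraries. Its difference was 2.25-fold (log2 1.17 ± 0.03 SE, adjusted p = 2.1e-16), with a difference of 0.04 between the arms at 0 h. MYO7B, a myosin of brush border microvilli, was higher (1.88 ± 0.159 and 6.95 ± 0.378 TPM), as were MYO1E (27 ± 1.95 and 42.6 ± 1.83 TPM) and MYH9, the heavy chain of non-muscle myosin IIA (290 ± 2.02 and 381 ± 15.9 TPM). The log2 differences of MYO10, MYO1E and MYH9 were 1.17 ± 0.03, 0.66 ± 0.04 and 0.44 ± 0.06 (SE). Whether they differ between these genes was not tested. MYO18A was lower (40.7 ± 0.78 and 28.6 ± 1.51 TPM), as were MYO5C (6.05 ± 0.24 and 4.55 ± 0.229 TPM) and MYO19 (70.3 ± 3.58 and 58.1 ± 1.95 TPM). The call of MYO19 was lost without untreated replicate 1, 2 or 3 or treated replicate 2 or 3 (adjusted p 0.01 to 0.022). MYO18A and MYO5C increased from 0 h in both arms, by 0.68 and 0.56 in untreated and by 0.28 and 0.25 in treated cells. When library totals set the scale, 4 myosins were higher and 4 lower.

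**Figure D4:**
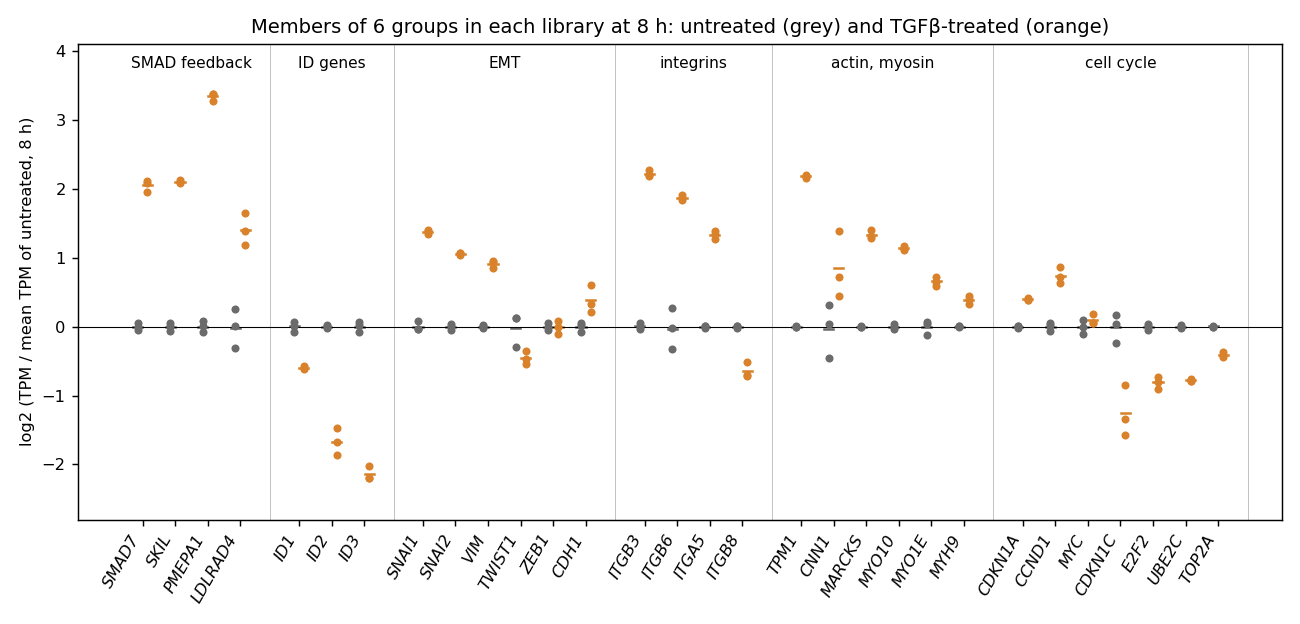
Members of 6 groups in each library of 8 h, as log2 of TPM over the mean TPM of the untreated libraries, with untreated in grey and TGFβ-treated in orange and short bars for the mean of the 3 points. SMAD feedback genes, integrins ITGB3, ITGB6 and ITGA5 and MYO10 stand above 0 in all 3 treated libraries, the ID genes below 0, and ZEB1 and MYC near 0.

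Among the matrix genes that were called, most were higher at 8 h. Of 36 collagens and collagen-modifying enzymes 13 were higher and 2 lower (12 and 0 on the change from 0 h), with a median log2 difference of 0.21. COL1A1, the α1 chain of type I collagen, read 271, 270 and 264 TPM in untreated and 841, 828 and 768 TPM in treated libraries (3.12-fold), although its partner chain COL1A2 had means of 0.028 and 0.0649 TPM. The basement membrane collagen COL4A1 was higher (27.1 ± 0.628 and 67.6 ± 2.12 TPM), as were the prolyl hydroxylase subunit P4HA3 (5.56 ± 0.464 and 11.3 ± 0.769 TPM) and COL7A1, the collagen of anchoring fibrils (82.2 ± 3.88 and 170 ± 10.2 TPM). COL8A1 (14.8 ± 0.142 and 12.7 ± 0.154 TPM) and LOXL3 (3.44 ± 0.356 and 2.66 ± 0.248 TPM) were called lower by small amounts. These calls were lost for COL8A1 without untreated replicate 1, 2 or 3 or treated replicate 2 or 3 (adjusted p 0.017 to 0.085) and for LOXL3 without untreated replicate 1, 2 or 3 or treated replicate 2 or 3 (adjusted p 0.014 to 0.063).

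Of 45 laminins, fibronectin and matricellular genes 17 were higher and 3 lower, 15 and 2 on the change from 0 h. Besides TGFBI and CCN2, MFAP2, a protein of elastic microfibrils, was higher (37.2 ± 1.35 and 184 ± 1.52 TPM, 5.16-fold), as was BGN, the proteoglycan biglycan (0.367 ± 0.0577 and 2.96 ± 0.257 TPM, 8.44-fold). CCN3 (12.9 ± 0.365 and 6.57 ± 0.433 TPM), the laminin chain LAMA3 (43.7 ± 1.13 and 30.9 ± 2.32 TPM) and the hyaluronan synthase HAS3 (5.03 ± 0.347 and 3.94 ± 0.427 TPM) were lower. The call of HAS3 was lost without untreated replicate 1 or 2 or treated replicate 1, 2 or 3 (adjusted p 0.014 to 0.043). Thus CCN2 and CCN3, of 1 gene family, differed in opposite directions.

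Plasminogen, metalloproteinase and other protease genes had 18 of 34 members higher and 4 lower, 16 and 3 on the change from 0 h, with a median log2 difference of 0.43. PLAU, which encodes urokinase, read 96.1, 98.1 and 98.2 TPM in untreated and 391, 360 and 348 TPM in treated libraries (3.93-fold). FURIN, a convertase that processes the TGFβ precursor, was higher (61.1 ± 2.62 and 161 ± 4.08 TPM). Besides TIMP3, SERPINB2, an inhibitor of urokinase, was lower (7.59 ± 0.196 and 4.9 ± 0.113 TPM), as was ADAMTS1 (14.7 ± 0.883 and 12.5 ± 0.353 TPM). From 0 h both genes fell in both arms. The log2 changes in untreated and treated cells were -4.02 and -4.64 for SERPINB2 and -1.34 and -1.68 for ADAMTS1. The call of ADAMTS1 was lost on log2(TPM + 1) (adjusted p = 0.15) and with 4 reference genes (adjusted p = 0.027). MMP9 could not be tested, since its mean estimated count was 3.33 in untreated and 2.67 in treated libraries.

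Of 33 interleukins, chemokines and their receptors 7 were higher and 9 lower. On the change from 0 h 6 and 6 were called, the same number in each direction. IL11, a cytokine of the IL-6 family and a known SMAD target, read 3.78, 4.57 and 3.65 TPM in untreated and 45.4, 46.3 and 41.8 TPM in treated libraries (13-fold), and IL6 was higher (1.98 ± 0.499 and 5.57 ± 0.788 TPM), while the receptor gene IL6R was lower. ACKR3, a scavenger receptor for CXCL12, was higher (25.7 ± 0.262 and 94.2 ± 2.79 TPM), as was CXCR4, the signalling receptor for the same ligand (0.681 ± 0.0855 and 1.25 ± 0.0617 TPM). The inflammatory cytokine IL1B (1.14 ± 0.153 and 0.38 ± 0.0668 TPM) and the neutrophil chemokine CXCL5 (71.2 ± 1.09 and 39.7 ± 1.19 TPM) were lower.

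Growth factors and their receptors had 14 of 46 members higher and 7 lower, 10 and 7 on the change from 0 h. Higher members included the PDGF ligands PDGFB (4.35 ± 0.335 and 15.8 ± 0.761 TPM, 4.25-fold) and PDGFA (24.7 ± 1.38 and 55.7 ± 3.56 TPM), IGF2 (10.8 ± 0.593 and 25.4 ± 1.03 TPM) and NRP2 (61.4 ± 1.99 and 135 ± 7.67 TPM). The lower members named by the rule were ERBB3 (7.77 ± 0.447 and 5.08 ± 0.501 TPM), HGF (2.15 ± 0.28 and 1.22 ± 0.0902 TPM) and the ligands of ERBB receptors NRG1 (16.9 ± 0.403 and 11.8 ± 1.39 TPM) and BTC (17 ± 0.449 and 11.1 ± 0.763 TPM). Of 21 ERK feedback genes 9 were higher and 4 lower, 3 and 2 on the change from 0 h. SPRY1 was lower (6.95 ± 0.338 and 3.2 ± 0.413 TPM), whereas its relative SPRY4 was higher (2.89 ± 0.0882 and 4.07 ± 0.342 TPM), as was the ETS factor ETV5 (30.4 ± 2.16 and 45.6 ± 1.51 TPM). SPRY1 stood at 2 ± 0.168 TPM in the untreated and 2.1 ± 0.482 TPM in the TGFβ arm at 0 h and rose in both, by 1.75 and 0.68 on the log2 scale (adjusted p = 3.5e-11 and 2.6e-05). SPRY4 also rose in both arms, by 0.59 in untreated and 0.95 in treated cells, and the difference of these changes was not called (adjusted p = 0.063).

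Of 24 Hippo and YAP target genes 11 were higher and 1 lower, 9 and 1 on the change from 0 h. Besides CCN2, CCN1 was higher (32.2 ± 1.29 and 67.2 ± 1.63 TPM), as were ANKRD1 (9.03 ± 0.683 and 15.5 ± 0.458 TPM) and DLC1, a GTPase-activating protein (3.01 ± 0.248 and 9.13 ± 0.429 TPM), while AJUBA was lower (34.3 ± 1.44 and 24.5 ± 0.398 TPM). The list shares CCN1 and CCN2 with the matricellular genes. Of 38 Wnt pathway genes 12 were higher and 6 lower (10 and 2 on the change from 0 h). The ligands WNT5B (8.24 ± 0.515 and 46.4 ± 1.44 TPM, 5.87-fold) and WNT7B (7.47 ± 0.173 and 16.6 ± 0.598 TPM) and the receptor FZD8 (2.04 ± 0.197 and 4.92 ± 0.262 TPM) were higher. AXIN2, the usual readout of β-catenin signalling, was lower (6.02 ± 0.273 and 4.51 ± 0.239 TPM) with a change from 0 h just outside the threshold (adjusted p = 0.0106). RNF43, another target and inhibitor, was lower as well (7.75 ± 0.0745 and 3.84 ± 0.0418 TPM). Of 23 Notch pathway genes 5 were higher and 2 lower (4 and 0 on the change from 0 h), the higher ones including the ligand JAG1 (19.9 ± 0.977 and 37 ± 1.03 TPM) and the target HES1 (19.6 ± 1.01 and 29 ± 0.606 TPM), whereas the receptor NOTCH3 was lower (18.2 ± 1.01 and 11.3 ± 1.31 TPM). From 0 h NOTCH3 rose in both arms, by 1.37 in untreated and 0.68 in treated cells (adjusted p = 1.7e-07 and 0.00065), and the difference of these changes was not called (adjusted p = 0.0266). HES1 fell by 0.67 in untreated cells, while its change in treated cells was -0.03 and not called (adjusted p = 0.7).

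The proliferation genes that were called were lower, with 1 exception. Of 39 G1/S and DNA replication genes 1 was higher and 13 lower, and of 35 mitosis and G2/M genes 0 were higher and 10 lower (28.6% called), with median log2 differences of -0.17 and -0.21 and no member at 2-fold. On the change from 0 h 6 and 4 were called lower. These medians are small, and the balance of small differences depended on the scaling. With 4 reference genes the calls of POLE2, PRIM1, TOP2A and NUSAP1 as lower were lost (adjusted p 0.12 to 0.22). Those of RRM2, CDC45, UBE2C and CDC25B were not. The call of TOP2A was also lost whichever single library of 8 h was left out (adjusted p 0.017 to 0.027). Expression of RRM2, a subunit of ribonucleotide reductase, was lower (204 ± 1.37 and 138 ± 3.48 TPM), as were CDC45 (39.5 ± 1.02 and 29.1 ± 0.412 TPM), UBE2C, a ubiquitin-conjugating enzyme of mitotic exit (291 ± 4.57 and 170 ± 0.916 TPM), and the phosphatase CDC25B (110 ± 2.13 and 76.6 ± 2.34 TPM). The 1 higher replication gene was GINS3 (41.8 ± 0.751 and 44.9 ± 1.02 TPM), and its call was lost whichever single library was left out (adjusted p 0.016 to 0.025). GINS3 was lower than at 0 h in both arms.

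Of 30 CDK inhibitors, cyclins, E2F factors and MYC 6 were higher and 7 lower, 3 and 6 on the change from 0 h. CDKN1A, which encodes the inhibitor p21, read 63.6, 62.8 and 64 TPM in untreated and 82.7, 85.1 and 83.1 TPM in treated libraries (1.37-fold). CDKN1A had fallen from 163 ± 8.69 TPM at 0 h in the untreated and from 153 ± 11.8 TPM in the TGFβ arm, by 1.41 and 0.90 on the log2 scale (adjusted p = 3.9e-13 and 1.3e-10). CDKN2B, the p15 inhibitor known as a TGFβ target, was listed at 0 in all 6 libraries, as was its neighbour CDKN2A. MYC read 76.1, 81.6 and 87.3 TPM and 92.3, 84.9 and 84.9 TPM and was not called (log2 0.16 ± 0.07 SE, adjusted p = 0.103). CCND1, which encodes cyclin D1, was higher (212 ± 8.99 and 354 ± 29.4 TPM), as was the repressor E2F7 (18 ± 0.403 and 30.3 ± 0.658 TPM), while E2F2 (7.26 ± 0.221 and 4.14 ± 0.254 TPM) and E2F8 (7.52 ± 0.515 and 4.62 ± 0.521 TPM) were lower. E2F7 also fell from 0 h in both arms, from 40.9 ± 1.97 and 38.6 ± 6.95 TPM (log2 -1.21 and -0.39, adjusted p = 9.1e-12 and 3.6e-05). CDKN1C, the p57 inhibitor, was lower (6.28 ± 0.881 and 2.7 ± 0.699 TPM), but the arms differed by -0.39 at 0 h and the change was not called (adjusted p = 0.279). The call of CDKN1C at 8 h was lost without untreated replicate 1 or 3 or treated replicate 2 or 3 (adjusted p 0.011 to 0.017). Of 29 apoptosis genes (27.6% called) 4 were higher and 4 lower, 3 and 1 on the change from 0 h, among them the BCL2 relative MCL1, which was higher (103 ± 2.41 and 161 ± 2.96 TPM), the death receptor TNFRSF10B, which was higher (56.3 ± 1.07 and 76.7 ± 2.31 TPM), and the kinase DAPK1, which was lower (1.9 ± 0.0648 and 1.23 ± 0.316 TPM).

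Genes of the endoplasmic reticulum and secretory pathway differed in 1 direction where they were called, with 16 of 31 higher and 0 lower (9 and 0 on the change from 0 h) and a median log2 difference of 0.23. The chaperone HSPA5 was higher (259 ± 4.76 and 358 ± 17.3 TPM), as were HERPUD1 (96.4 ± 0.731 and 148 ± 10.9 TPM) and the membrane-bound factor CREB3L1, which acts on collagen genes (32.3 ± 1.7 and 68.4 ± 4.54 TPM), the 1 member at 2-fold or more. Of 30 ATF4 and amino acid genes 8 were higher and 2 lower (5 and 1 on the change from 0 h), the higher ones including the amino acid transporter SLC7A5 (74.5 ± 0.785 and 133 ± 12.4 TPM), whereas DDIT4, an inhibitor of mTORC1, was lower (73 ± 1.5 and 45.6 ± 1.88 TPM).

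Antioxidant, detoxification and retinoid genes were lower in 14 and higher in 6 of 42 tested members, 11 and 4 on the change from 0 h. GCLC, the rate-limiting enzyme of glutathione synthesis, was lower (240 ± 11.6 and 104 ± 4.22 TPM, 2.29-fold), and the aldehyde dehydrogenases ALDH1A1 (3.57 ± 0.492 and 1.2 ± 0.106 TPM), ALDH1A3 (287 ± 3.65 and 147 ± 3.32 TPM) and ALDH3A2 (148 ± 4.96 and 84.6 ± 0.174 TPM) were lower as well. For ALDH1A1 and ALDH3A2 the untreated arm rose from 0 h by 1.58 and 0.91 on the log2 scale (adjusted p = 6.2e-09 and 6.3e-13), while the changes of 0.02 and 0.09 in the TGFβ arm were not called. Higher members were the retinoic acid receptor RARA (16.9 ± 1.06 and 28.7 ± 1.3 TPM), the retinoid transporter STRA6 (61.3 ± 0.794 and 99.1 ± 1.89 TPM) and HMOX1 (99.8 ± 3.05 and 135 ± 11.8 TPM). HMOX1 fell from 628 ± 79 and 668 ± 85 TPM at 0 h in both arms, by 2.70 in untreated and 2.32 in treated cells on the log2 scale, and the difference of these changes was not called (adjusted p = 0.0551). Within the list, enzymes that make retinoic acid and genes that respond to or take up retinoids thus did not differ as 1 group.

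Of 31 glycolysis and hypoxia genes 6 were higher and 5 lower (5 and 3 on the change from 0 h). With library totals the counts were 5 and 7, with upper-quartile factors 6 and 6. ANGPTL4, a secreted inhibitor of lipoprotein lipase that is induced by hypoxia and by TGFβ, read 8.75, 8.3 and 9.08 TPM in untreated and 82.3, 79.1 and 73 TPM in treated libraries (9.36-fold), and the glucose transporter SLC2A1 was higher (386 ± 7.85 and 624 ± 11.2 TPM), as were the regulators of glycolysis PFKFB3 (15.2 ± 1.24 and 19.9 ± 0.63 TPM) and PFKFB4 (10.8 ± 0.764 and 18.4 ± 1.37 TPM). SLC2A1 fell in the untreated arm from 646 ± 53 TPM at 0 h (log2 -0.77, adjusted p = 1.4e-09), while the TGFβ arm, at 601 ± 71 TPM at 0 h, was not called (adjusted p = 0.98). The hypoxia genes EGLN3 (24.8 ± 0.495 and 13.7 ± 0.786 TPM), CA9 (2.52 ± 0.485 and 1.56 ± 0.0355 TPM) and BNIP3 (33.3 ± 0.555 and 22.4 ± 0.55 TPM) and the glycolytic ENO2 (21.8 ± 0.734 and 14.8 ± 0.347 TPM) were lower, CA9 without a call on the change from 0 h (adjusted p = 0.0334). Of 31 cholesterol and fatty acid synthesis genes 1 was higher and 8 lower (1 and 2 on the change from 0 h), with ELOVL6 lower (59.3 ± 0.435 and 41.5 ± 2.66 TPM) and ACLY, which supplies acetyl-CoA, higher (189 ± 1.89 and 244 ± 0.717 TPM).

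Of 39 interferon-stimulated and antigen presentation genes 0 were higher and 8 lower (20.5% called, beside 16.4% of all tested genes), but 1 was called on the change from 0 h, and the median log2 difference was -0.13 at 8 h and -0.03 at 0 h. IFIT1 had 29.6 ± 1.37 and 19 ± 1.27 TPM and IFI44L 15.7 ± 0.579 and 11 ± 0.595 TPM, neither of them called on the change. The 42 cytosolic ribosomal protein genes, with a median of -0.01, and the 6 reference genes of the qRT-PCR, with a median of -0.07, had no member past the threshold.

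**Figure D5:**
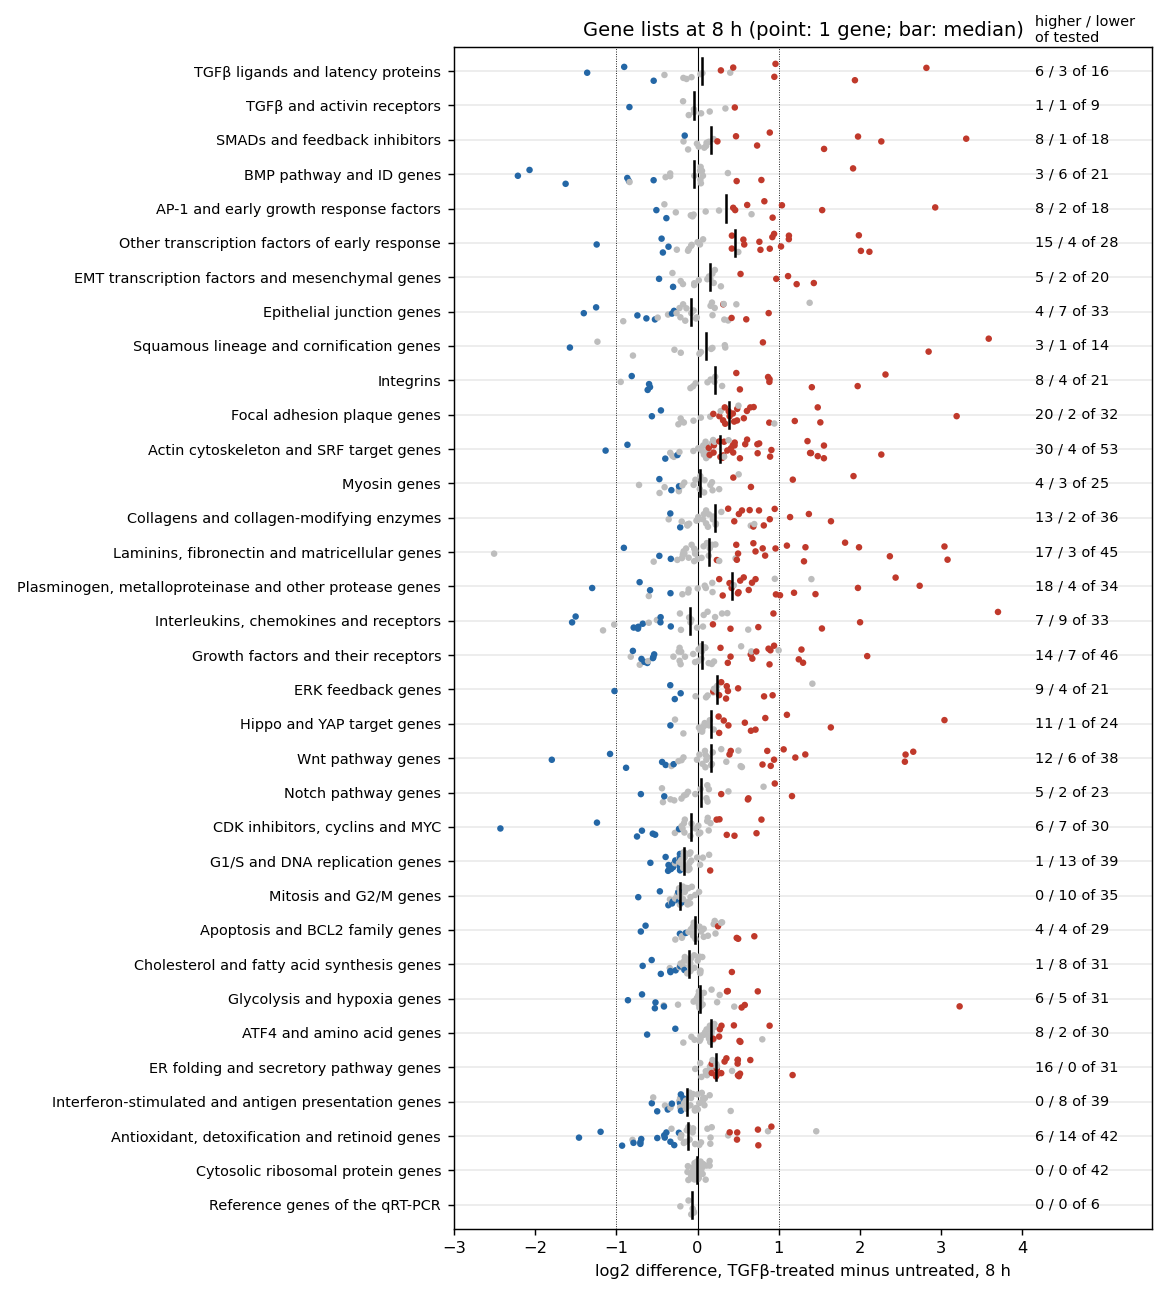
Each point is 1 tested member of a gene list at its log2 difference at 8 h, red if called higher, blue if called lower and grey if not called, with a black bar at the median of the list and the counts of higher and lower members at the right. The lists of proteases, of focal adhesion genes and of both kinds of transcription factor have their medians above 0, the replication and mitosis lists lie just below 0, and ribosomal protein genes cluster at 0.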

How the data were processed

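RNA-seq libraries of SK-MES1 cells were sequenced by the authors on an Illumina HiSeq and quantified with kallisto 0.43.0 against the GRCh38 transcripts of Ensembl release 79. The deposited tables give the estimated count, the TPM and the effective length of 173259 transcripts per library, and estimated counts were rounded to whole numbers after summing. Transcripts were assigned to genes by identifier through GENCODE 44. This matched 155518 (89.8%) of them and 94.98% to 95.18% of the counts at 8 h, while the other 17741 were left out, so that a gene whose main transcript is among them is understated. Genes with at least 10 counts in at least 3 libraries were tested.

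The fit was limma 3.58.1 voom with TMM factors on all 24 libraries with a mean per group (16 residual degrees of freedom), the contrast was TGFβ-treated minus untreated at 8 h, and p-values were adjusted over all tested genes. Contrasts of 8 h with 0 h within each arm were added after the data were seen. On simulated counts of 17186 genes the contrast at 8 h recovered 92% of 2-fold and 99% of 4-fold changes with 2 false calls. Only 200 genes were changed there, equally often up and down and all with average counts above the filter. The simulation therefore does not cover changed genes with few counts, or a shift of scale between the groups. edgeR 4.0.16 and DESeq2 1.42.0, other scalings, filters, pseudocounts, library sets and the leaving out of each library served as alternatives. Effective lengths were used in 1 alternative alone.

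Named genes were the 10 leading genes per direction (at least 2-fold, at least 5 TPM, groups not overlapping), up to 4 called members of at least 1 TPM per list and direction, the 5 largest differences per direction, and genes of the study or the pathway, some of which are not reported here. The members and lists were chosen with earlier results of these data known, and list counts are descriptions without a set test. Promoter sequences are from RefSeq.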

Additional observations from a re-analysis of the deposited data

Results flagged for a closer look

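For 13 of the 20 leading genes the effect of TGFβ1 at 48 h differed from that at 8 h in the test of the difference itself (limma voom, adjusted over all genes), as it did for 2448 (14%) of all tested genes. Library codes go with the arm at both times and are not the same at 48 h as at 8 h, so that a difference between codes cannot be told apart from time. The difference between the effects (48 h minus 8 h, log2) was positive for 4 induced genes, which were further from untreated cells at 48 h. These were PMEPA1 with 1.22 (3.31 at 8 h and 4.53 at 48 h), TPM1 with 1.03 (2.26 and 3.29), TGFBI with 0.79 (1.82 and 2.61) and F2R with 0.79 (1.55 and 2.34). For 3 induced genes the effect was smaller at 48 h, with -1.06 for CCN2 (3.04 and 1.98), -0.73 for SGK1 (2.65 and 1.93) and -0.40 for ADAM19 (2.44 and 2.04). For 6 lower genes the difference was further from 0 at 48 h, with -1.46 for TIMP3 (-1.30 and -2.75), -0.96 for TNFRSF11B (-1.65 and -2.62), -0.80 for ID3 (-2.07 and -2.87), -0.61 for SSTR1 (-2.41 and -3.02), -0.47 for IL6R (-1.54 and -2.01) and -0.42 for INKA2 (-1.20 and -1.63). The adjusted p-values of these 13 tests ran from 4.2e-12 for PMEPA1 to 0.0032 for SSTR1.

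Transcripts that had no gene in the annotation were outside the gene sums. Of 5255 such transcripts with enough counts 140 (2.66%) were called, 98 higher and 42 lower, and 37 of them by at least 2-fold. The 4 flagged ones were ENST00000379612, with a log2 difference of 1.48 (mean estimated counts of 7484 in untreated and 19346 in TGFβ-treated libraries), ENST00000620305 with 2.13 (1140 and 4622), ENST00000229416 with -1.16 (43910 and 18265) and ENST00000378062 with -1.42 (344 and 120). The genes they belong to were not looked up.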

How the results depend on the processing

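The number of genes called at 8 h was 2859 and moved by over 1.5 times in 4 settings, to 5260 in a fit of the 6 libraries of 8 h alone (2782 of the 2859 among them), to 5246 when that fit also had a replicate block, to 1829 at an adjusted p below 0.001 and to 1376 on the change from 0 h. The number with at least 2-fold differences was 428 and moved to 206 on log2(TPM + 1), where the pseudocount shrinks differences of low genes. edgeR called 2760 genes and DESeq2 3200, of which 2741 and 2804 were shared. Without 1 library of 8 h, 2203 to 2288 genes were called, 402 to 412 of them with at least 2-fold differences, and on the change from 0 h 1155 to 1467 without 1 library of 0 h or 8 h.

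At 8 h the replicate numbers did not pair the samples: deviations of same-numbered libraries correlated at -0.009, -0.023 and -0.047. These correlations were not computed at 0 h, so that a pairing of the 0 h libraries by number was not tested. At 0 h FSTL3 read 36.6, 27.3 and 34.1 TPM in the untreated and 36.5, 24.5 and 34.9 TPM in the TGFβ arm, alike by number. BATF3, with 5.28, 5.54 and 5.58 TPM and 6.21, 4.72 and 4.72 TPM, was not alike. If the 0 h libraries are paired, the fit without a block overstates the error at 0 h and on the change from 0 h. Genes not called there could then have been missed. With the replicate block in the fit of all libraries 3198 genes were called, 424 with at least 2-fold differences, and 1598 on the change from 0 h, and no named gene lost its call.

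Of 5449 values of the 218 named genes under the alternatives 5080 kept direction and side of the threshold, 364 lost the call, 5 gained it and 0 reversed, and 150 genes kept their side of the threshold in every alternative run. The alternatives with the most lost calls were the change from 0 h, the 4 reference genes and the stricter threshold. Of 1020 list counts 872 stayed within 1.5 times. With 3 libraries a group, the smaller differences were limited by the spread between libraries and by the scaling, and genes under 10 counts were not tested.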

Other observations

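The genes in the following sentences were chosen after their values were seen. They stand outside the gene lists above, except that KRT7 is also one of the epithelial markers. The other chorionic gonadotropin β genes moved with CGB5 and CGB8: CGB3 read 0.98 ± 0.066 TPM in untreated and 11.7 ± 0.551 TPM in TGFβ-treated cells (adjusted p = 6.7e-09), CGB7 2.42 ± 0.196 and 15.8 ± 0.772 TPM (adjusted p = 2.4e-15) and CGB2 0.468 ± 0.252 and 3.98 ± 0.482 TPM (adjusted p = 7.2e-07). The genes are near-identical, and their reads cannot be assigned to single copies with certainty.

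KRT7, a simple epithelial keratin, read 377, 378 and 356 TPM in untreated and 1185, 1146 and 1106 TPM in treated libraries (3.06-fold). SEMA7A, a membrane-anchored semaphorin that binds integrins, read 48, 47.7 and 43.6 TPM and 284, 272 and 261 TPM (6.03-fold), PTHLH, which encodes parathyroid hormone-related protein, 39.9, 41.2 and 36.2 TPM and 188, 202 and 208 TPM (5.48-fold), and F2RL1, the protease-activated receptor PAR2, 34.7, 32.7 and 31.9 TPM and 164, 161 and 169 TPM (5.26-fold). All 4 fell from 0 h to 8 h in the untreated arm (log2 changes of -0.66, -0.82, -1.07 and -0.77, adjusted p in limma voom at most 1.6e-05), where their levels at 0 h were 524 ± 36.7, 77.5 ± 3.23, 77.5 ± 2.84 and 54 ± 2.77 TPM, and rose in the TGFβ arm (0.95, 1.83, 1.47 and 1.59, adjusted p at most 4.4e-08). EPHB2, an ephrin receptor, read 78.9 ± 1.79 and 237 ± 3.27 TPM, and AMIGO2, an adhesion protein, 95.6 ± 1.33 and 245 ± 1.71 TPM.

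Among lower genes outside the lists, RGS2, a regulator of G protein signalling, read 26.9, 26.6 and 30.3 TPM in untreated and 8.05, 8.39 and 10.7 TPM in treated libraries (2.9-fold lower), with 15.6 ± 1.63 TPM at 0 h in the untreated arm. NR0B1, the orphan receptor DAX1, read 97.6, 103 and 97.2 TPM and 44.7, 41.4 and 42.1 TPM (2.24-fold lower), AOAH, which deacylates lipopolysaccharide, 8.93, 9.83 and 10.2 TPM and 2.76, 2.62 and 2.64 TPM (3.33-fold lower), and the adenosine receptor ADORA2A 8.25, 8.89 and 8.92 TPM and 3.22, 3.21 and 3.43 TPM (2.61-fold lower). UGCG, the enzyme of glucosylceramide synthesis, read 44.9 ± 2.13 and 21.1 ± 0.902 TPM. CPOX, an enzyme of heme synthesis, read 13.4 ± 1.95 and 5.89 ± 0.712 TPM, but the arms differed by -0.59 at 0 h and its change from 0 h was not called (adjusted p = 0.139).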
